A study of Nothobranchius furzeri with 20 samples.

Results

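Brains of male turquoise killifish (Nothobranchius furzeri, GRZ strain) of 10 weeks were compared with brains of 7 weeks. The comparison took the 5 RNA-seq libraries whose age label reads 10 weeks and the 5 whose label reads 7 weeks, 10 of the 20 libraries of the series; the others come from animals of 5 and 14 weeks. The groups share strain, sex and tissue and differ in the labelled age, and no treatment is labelled. The labels list each library as a separate sample and are silent on pooling of brains. The tests thus set differences against the spread between libraries. For genes, that spread was estimated from all 20 libraries unless stated. Replicate numbers only name a library within its age. Of 26739 gene identifiers in the count table, 19474 had enough reads to be tested. The files do not pair the identifiers with gene names, so single genes are given by identifier and groups of genes by level, length and course over age.

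The turquoise killifish lives in seasonal ponds in south-eastern Africa and is among the vertebrates with the shortest lives that can be bred in captivity. GRZ is its most used inbred laboratory strain, and it grows, matures and ages within months. Fish brains keep dividing progenitor cells in adult life, and in killifish the production of new neurons is known to decline with age while glial and immune genes become more active. Whether such genes are among those below cannot be read from the identifiers. Brain markers could likewise not be looked up, so the labelled tissue was not checked against them.

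At 10 weeks, total counts ran from 17.3 to 23.8 M (megareads) per library, and at 7 weeks from 21.6 to 30.7 M. The mean was 21.9 ± 2.81 M at 10 weeks and 25.7 ± 4.28 M at 7 weeks (SD, n = 5 each). This difference did not pass the test (two-sided exact permutation test, p = 0.18, adjusted p over 3 library measures 0.55). The number of genes with at least 1 read was 21666 ± 81.0 at 10 weeks and 21652 ± 158 at 7 weeks (exact permutation p = 0.87, adjusted p = 0.87). The 10 most abundant genes took 3.47 ± 0.0922% of the counts at 10 weeks and 3.36 ± 0.356% at 7 weeks (exact permutation p = 0.52, adjusted p = 0.79). With 5 against 5 libraries the smallest two-sided p is 0.0079.

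One 7-week library, replicate 3, stood apart from the rest. Over the other 19 libraries, its Spearman rho had a median of 0.925, whereas the 10-week libraries lay between 0.982 and 0.985 and the other 7-week libraries between 0.975 and 0.986. In log2 CPM (read counts per library size, the library size being scaled by TMM) over all tested genes, the 10-week libraries lay 38.3 ± 5.66 from the centroid of their age and the 7-week libraries 63.3 ± 29.2 (SD, n = 5 each; exact permutation test, two-sided, p = 0.016). Replicate 3 was at 113.9 and the other 7-week libraries were between 42.5 and 61.9. Without replicate 3 the mean distance was 38.3 ± 5.66 at 10 weeks and 42.0 ± 7.32 at 7 weeks (SD, n = 5 and 4; exact permutation p = 0.46). The result of the test thus rested on this library. So few libraries cannot show that the other 7-week libraries were as close together as the 10-week ones. A group of 4 also lies slightly closer to its centroid by construction. The distances of 1 age share a centroid, which replicate 3 moved, while the permutation test takes them as separate values. With replicate 3 in the centroid, the mean distance of the other 7-week libraries was 50.6. The calls, the named genes, the course over age and the length classes are given below with and without replicate 3.

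Between 10 and 7 weeks 535 genes changed, 222 higher and 313 lower at 10 weeks (edgeR's quasi-likelihood test on all 20 libraries, Benjamini-Hochberg adjusted p below 0.05). These are 1.14% of the tested genes in the rising direction, 1.61% in the falling direction and 2.75% together. Most changes were small. The middle range (lower to upper quartile) of the log2 fold change was 0.49 to 0.78 among rising genes, and among falling genes its size was 0.47 to 0.86. Changes of less than 1.5-fold made up 45.0% of the rising and 46.0% of the falling genes. Changes beyond 2-fold numbered 27 among rising and 68 among falling genes, and changes beyond 4-fold 1 and 30. The median log2 fold change over all tested genes was 0.02. All 10-week libraries lay on the same side of all 7-week libraries in 180 of the 222 rising and 247 of the 313 falling genes, and in 190 and 250 when 7-week replicate 3 was not counted. Leaving out a library can only keep or raise such counts. Called or not, 3.32% of the tested genes lay fully above and 3.36% fully below, with all 10 libraries counted. The changed genes made up a small share of the RNA. The 222 rising genes took 1.68 ± 0.147% of the counts at 10 weeks and 1.098 ± 0.129% at 7 weeks, and the 313 falling genes 1.08 ± 0.0562% at 10 weeks and 1.59 ± 0.193% at 7 weeks (SD, n = 5 each). In bulk brain tissue, a change in the number of cells of a type and a change in RNA per cell cannot be told apart.

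**Figure D1:**
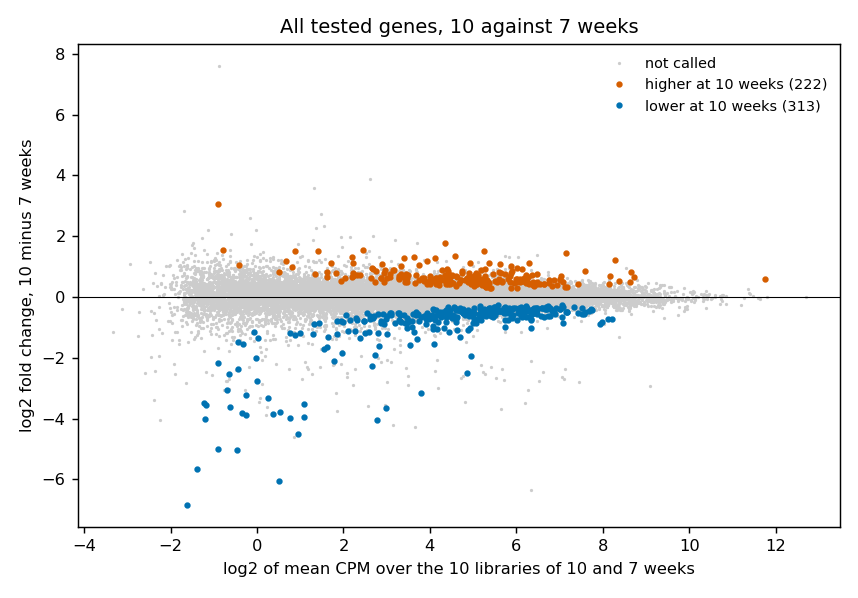
Log2 fold change (10 minus 7 weeks) of each of the 19474 tested genes against the log2 of its mean CPM over the 10 libraries of both ages. Orange points are the 222 genes called higher at 10 weeks, blue points the 313 called lower and grey points the rest; the 30 called falls beyond 4-fold lie mostly at low levels, with a median mean CPM of 0.918, and a further 79 fitted falls beyond 4-fold were not called, 29 of them with a mean CPM of at least 10.

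Leaving out 7-week replicate 3 changed which genes were called more than how many. Without it 209 genes were higher and 234 lower at 10 weeks, 1.07% and 1.19% of 19588 genes tested (2.26% together), and the share of falling genes among the calls was 52.8%, against 58.5% with it. The 2 lists shared 338 genes, 63.2% of the list with replicate 3 and 76.3% of the list without it. All 222 rising and all 313 falling genes had the same sign without replicate 3. Their choice by the change in largely the same libraries favours this. Of the rising genes 146 were still called and 76 were not, and of the falling genes 192 were still called and 121 were not. The genes that were no longer called had a median adjusted p of 0.063 (rising) and 0.067 (falling) by edgeR. Among falling genes that were no longer called, the median log2 fold change had a size of 0.60 with replicate 3 and 0.45 without it. Among rising genes that were no longer called these sizes were 0.56 and 0.50. Without replicate 3, 63 rising and 42 falling genes were called that had not been called before.

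Replicate 3 was the most frequent extreme among the 7-week libraries, in both directions. Of the 313 falling genes, it was the highest of the 7-week libraries in 227 (72.5%). Of the 222 rising genes, it was the lowest of the 7-week libraries in 104 (46.8%). At the other end stood 7-week replicate 5, which was the 7-week library nearest to the 10-week libraries in 188 falling genes (60.06%) and 115 rising genes (51.8%). Among the 10-week libraries, replicate 5 was nearest to the 7-week libraries in 145 falling genes (46.3%) and 114 rising genes (51.4%). The values of these libraries helped choose the genes, and such shares over all tested genes were not counted. Of 12757 tested genes of higher level, 7-week replicate 3 lay over 2-fold below the median of the other 7-week libraries in 1887. It lay over 2-fold above that median in 331. For the other 7-week libraries these counts were 13 to 48 and 10 to 86.

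Replicate 3 moved the count of calls more where the spread was estimated from these 2 ages alone. Fitted on only the 10 libraries of 10 and 7 weeks, edgeR gave 23 rising genes (0.121% of those tested) and 37 falling genes (0.195%), 0.316% together. With replicate 3 also left out, the same fit gave 583 rising (3.06%) and 559 falling genes (2.93%), 5.98% together. The common biological coefficient of variation (the typical relative spread of a gene between libraries of 1 age) was 0.251 in the first of these fits and 0.170 in the second. In the fits of all ages it was 0.270 with and 0.238 without replicate 3. Of the 535 genes, 436 were among the 1142 calls of the 2-age fit without replicate 3, each in the same direction.

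The list depended on other libraries too. Of the 10-week libraries, omitting replicate 1, 2, 3 or 4 left 181, 132, 91 or 208 calls. Of the 7-week libraries, omitting replicate 2 or 4 left 184 or 175 calls. Omitting any other library of the series gave 381 to 712 calls. Called whichever library was left out were 28 rising and 58 falling genes, with median log2 fold changes of 0.77 and -0.73. Of these 86 genes, 85 separated the 10-week from the 7-week libraries fully, and 28 rising and 56 falling ones were also called by DESeq2 (2.33% of all tested genes higher, 3.94% lower) and by limma-voom (1.18% higher, 1.17% lower). The choice of the 86 genes by calls on the same counts favours both results. Of the 535 genes, DESeq2 called 534 and limma-voom 429. The median mean CPM of the 86 genes was 32.0. No gene of the 535 was called in the opposite direction under any setting tried. All settings share libraries with the fit that chose the genes, which favours this.

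**Figure D2:**
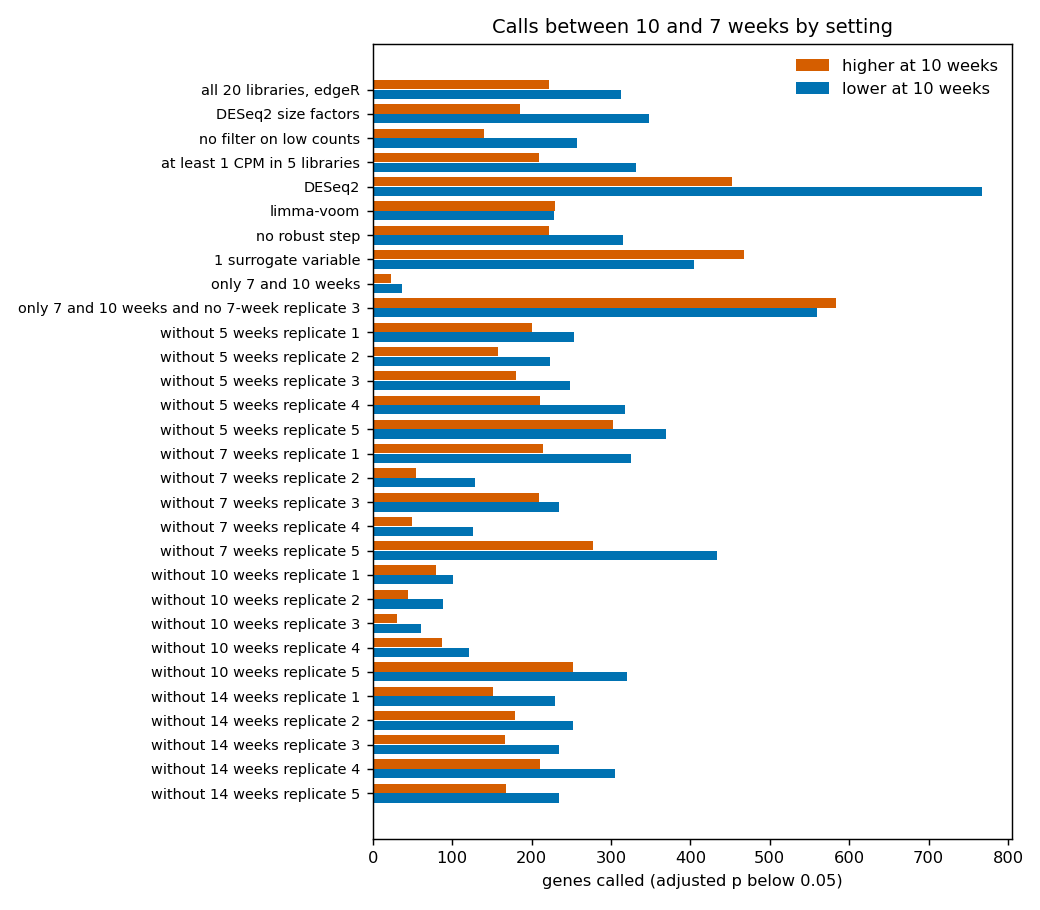
Number of genes called higher (orange) and lower (blue) at 10 than at 7 weeks under each setting, with the fit of all 20 libraries at the top and the fits that leave out 1 library below, in order of age. The 2-age fit gave 60 calls with 7-week replicate 3 and 1142 without it.

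By a rule that asked for a mean CPM of at least 1, an adjusted p below 0.05 with and without 7-week replicate 3, and complete separation of the ages, 127 rising and 159 falling identifiers qualified. Described here are the 2 that rose most and the 2 that fell most. These genes were chosen by their change between 10 and 7 weeks, so their values at these ages are a description.

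Nfu_g_1_010812, with 2785 bases, was at 25.01, 28.7, 26.4, 39.5 and 38.5 CPM in the 10-week libraries, replicates 1 to 5. In the 7-week libraries it was at 8.57, 3.82, 6.12, 6.86 and 21.2 CPM. The groups did not overlap, and 7-week replicate 5 lay close to the lowest 10-week library. The log2 fold change was 1.76 ± 0.38 (SE; edgeR adjusted p = 0.021) and without 7-week replicate 3 it was 1.64 ± 0.41 (edgeR adjusted p = 0.045). The call was lost without 7-week replicate 4 (edgeR adjusted p = 0.057), 10-week replicate 3 (0.051) or 10-week replicate 4 (0.052), and in the 2-age fits with replicate 3 (0.076) and without it (0.069). In the other ages the gene was at 24.2 ± 8.70 CPM at 5 weeks and 47.6 ± 14.0 CPM at 14 weeks (SD, n = 5 each). The 7-week libraries, apart from replicate 5, thus lay below every library of the other 3 ages.

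Nfu_g_1_002874, with 5116 bases, was at 56.0, 56.2, 57.8, 73.7 and 37.8 CPM in 10-week replicates 1 to 5. In 7-week replicates 1 to 5 it was at 20.2, 12.8, 23.2, 15.4 and 26.3 CPM. The groups did not overlap, with 10-week replicate 5 the lowest of its age. The log2 fold change was 1.52 ± 0.24 (SE; edgeR adjusted p = 0.0055), and 1.59 ± 0.27 without 7-week replicate 3 (edgeR adjusted p = 0.012). It was called in every fit tried, with log2 fold changes of 1.399 to 1.65 when single libraries were left out. At 5 weeks the gene was at 31.7 to 49.8 CPM and at 14 weeks at 48.9 to 126.6 CPM, so its lowest libraries of all were those of 7 weeks. Between 7 and 5 weeks its log2 fold change was -1.12 ± 0.24 (SE; edgeR adjusted p = 0.081).

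Nfu_g_1_021983, a gene of 612 bases, had 1, 2, 0, 0 and 1 counts in 10-week replicates 1 to 5. In 7-week replicates 1 to 5 it had 17, 4, 130, 93 and 119 counts, which is 0.788, 0.164, 6.07, 3.04 and 4.09 CPM. The 10-week libraries lay between 0 and 0.0851 CPM. Replicates 1 and 2 of the 7-week libraries were lower than replicates 3, 4 and 5. Replicate 2 stood near the 10-week libraries, and replicate 1 lay in between. Summed over libraries, the 10-week level was 0.0129 of the 7-week level, and counting error alone gave it an exact 95% interval of 0.0035 to 0.0334 (4 and 363 counts). The fitted log2 fold change was -6.06 ± 1.12 (SE; edgeR adjusted p = 0.0093), and -5.60 without 7-week replicate 3 (edgeR adjusted p = 0.018). This value depends on the prior count, since 2 of the 10-week libraries had 0 counts. By limma-voom the gene was not called (adjusted p = 0.18). In the 2-age fits, with or without 7-week replicate 3, it was not among the genes with enough reads to be tested. At 14 weeks all 5 libraries lay between 3.16 and 5.02 CPM, and at 5 weeks 4 libraries lay between 2.47 and 5.38 CPM and replicate 4 at 0.039 CPM. Reads at 5 and 14 weeks let this gene be tested, which favours high values at those ages.

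Nfu_g_1_004580, of 756 bases, had a like course. It was at 0.0423, 0.255, 0.176, 0.0857 and 0.239 CPM in 10-week replicates 1 to 5. In 7-week replicates 1 to 5 it was at 0.463, 0.369, 7.05, 3.98 and 6.73 CPM. The groups did not overlap, but here 7-week replicates 1 and 2 were both much nearer to the 10-week libraries than to the other 7-week libraries. The log2 fold change was -4.51 ± 0.93 (SE; edgeR adjusted p = 0.017), and -4.16 without 7-week replicate 3 (edgeR adjusted p = 0.030). The call was lost by limma-voom (adjusted p = 0.21) and by edgeR without 10-week replicate 1 (0.051) or 10-week replicate 3 (0.057). This gene too was not tested in the 2-age fits, with or without 7-week replicate 3. At 14 weeks the gene was at 2.33 to 5.66 CPM. At 5 weeks replicate 4 was at 0.156 CPM and the other libraries at 2.62 to 6.74 CPM. Here too, reads at 5 and 14 weeks let the gene be tested, which favours high values at those ages.

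**Figure D3:**
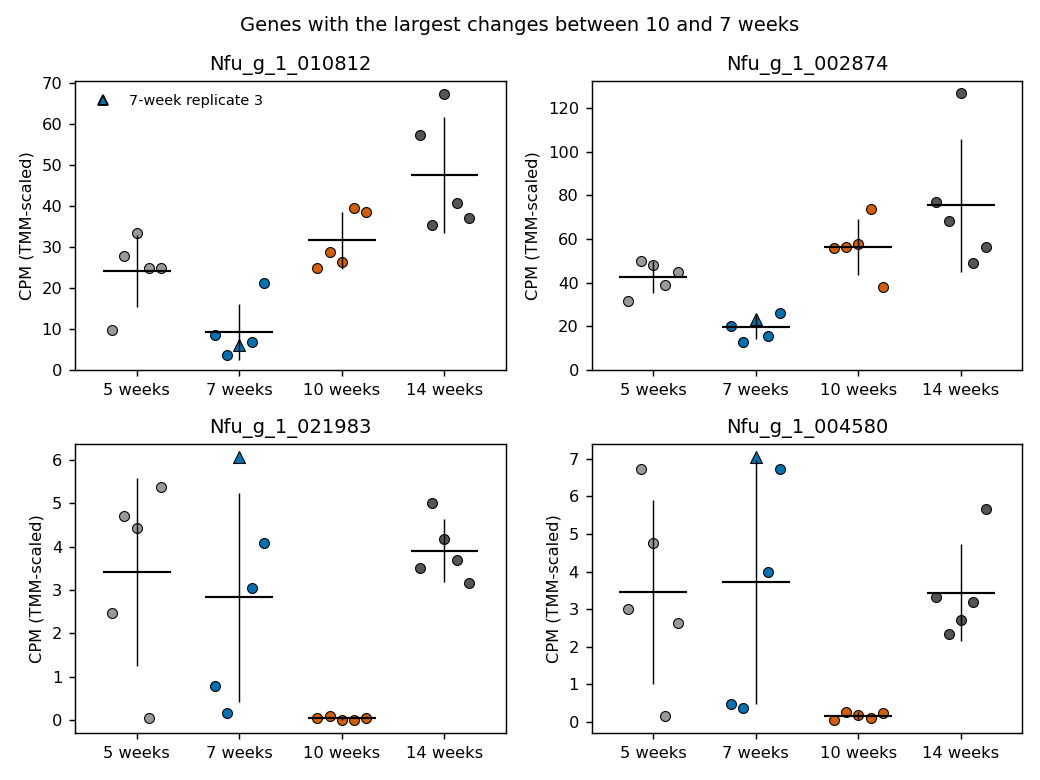
TMM-scaled CPM of the 2 rising genes (top) and the 2 falling genes (bottom) in each of the 20 libraries by age; horizontal lines are means and vertical lines 1 SD (n = 5, drawn no lower than 0), and the triangle is 7-week replicate 3. Both rising genes were lowest at 7 weeks, and both falling genes were near 0 at 10 weeks and in 5-week replicate 4, and low in 7-week replicates 1 and 2.

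The last 2 genes belong to the 30 called lower beyond 4-fold; a further 79 genes had a fitted fall beyond 4-fold that was not called. The 30 called genes had a geometric mean of 0.324, 0.345, 0.302, 0.318 and 0.286 CPM in 10-week replicates 1 to 5. In 7-week replicates 1 to 5 it was 0.836, 0.544, 4.41, 2.45 and 2.91 CPM. The 10-week libraries were thus close together, while the 7-week libraries lay in 2 ranges, with replicates 1 and 2 low and replicates 3, 4 and 5 high. In the 10-week libraries the median CPM of the 30 genes was 0.144 to 0.191. In 7-week replicates 1 to 5 this median was 0.695, 0.328, 3.22, 1.73 and 1.91, so replicate 1 lay between replicate 2 and the higher libraries. At so few reads, the prior count brings the geometric means closer together. The 5-week libraries had 2.53 to 3.52 CPM except replicate 4, with 0.402 CPM, and the 14-week libraries 2.17 to 2.498 CPM. Of the 30 genes, 5 or 6 reached 1 CPM in a 10-week library, 9 and 7 in 7-week replicates 1 and 2, and 24 to 30 in 7-week replicates 3, 4 and 5. The running numbers in the titles, whose meaning the labels do not give, are 57 to 62 for the 10-week libraries, 48 and 53 for 7-week replicates 1 and 2, and 55, 64 and 65 for 7-week replicates 3, 4 and 5. For 5-week replicate 4 the number is 25, and for the other 5-week libraries 20, 21, 23 and 35. The 14-week libraries have 66 to 73.

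These 30 genes were of low level and short. Their median length was 1036.5 bases, against 2670 bases over all tested genes, and 16 of them had a mean CPM below 1 over the 10 libraries. The calls depended on the test. DESeq2 called all 30 lower and limma-voom 4, edgeR called 19 without 7-week replicate 3, and 11 separated the ages fully. Of all tested genes, DESeq2 called 3.94% lower, limma-voom 1.17% and edgeR without 7-week replicate 3 1.19%, and 3.36% lay fully below. The choice of the 30 by edgeR calls on the same counts favours high counts here. The median log2 fold change of the 30 was -3.64, and -3.24 without 7-week replicate 3. In 1 gene called lower no 10-week library had a read, and in 2 the 10-week libraries held 1 to 3 reads together. Between 14 and 10 weeks, a comparison that shares the 10-week libraries, 11 of the 30 were called higher, where 0.0976% of the tested genes were called. The 30 were chosen for low values at 10 weeks, and reads at 14 weeks helped such genes to be tested. Both favour these calls, so the 2 shares are not alike.

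The other 283 falling genes and the 222 rising genes shifted as a body by less. The 222 rising genes had a geometric mean of 31.7, 33.5, 34.5, 32.99 and 29.2 CPM in 10-week replicates 1 to 5. In 7-week replicates 1 to 5 it was 21.7, 18.9, 18.0, 19.5 and 23.06 CPM. Every 10-week library lay above every 7-week library in this mean, which the choice of genes by their change favours. At 5 weeks the range was 21.99 to 25.12 CPM and at 14 weeks 27.8 to 32.2 CPM. The 283 falling genes were at 21.3, 20.5, 19.3, 20.4 and 23.14 CPM in 10-week replicates 1 to 5. In 7-week replicates 1 to 5 they were at 30.7, 33.9, 40.3, 32.0 and 27.8 CPM, with replicate 3 the highest. At 5 weeks they ranged from 27.9 to 31.99 CPM and at 14 weeks from 20.8 to 25.4 CPM.

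**Figure D4:**
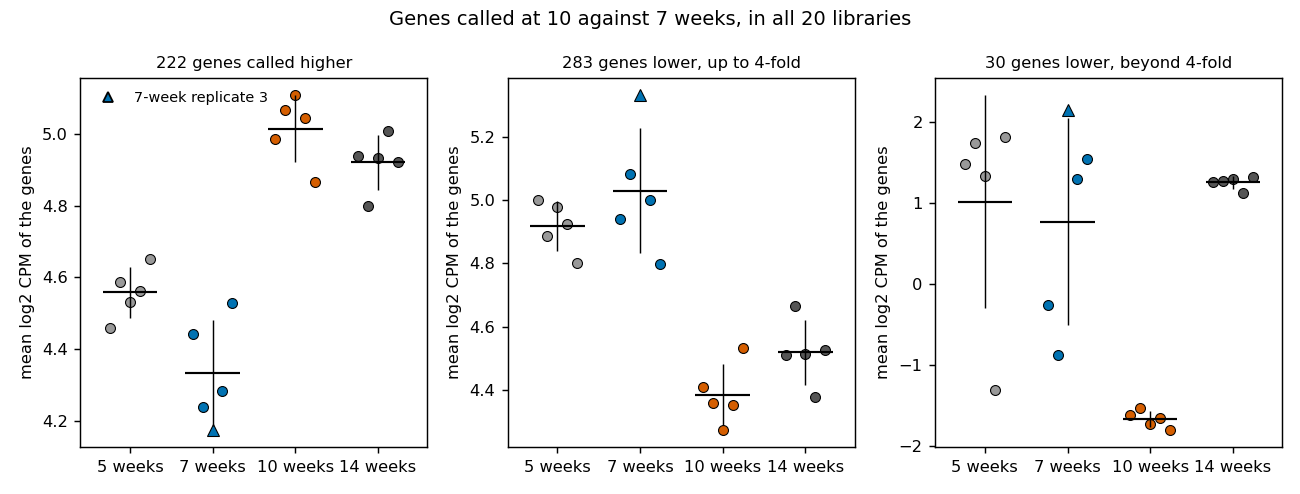
Mean log2 CPM, in each of the 20 libraries by age, of the 222 rising genes, those higher at 10 weeks (left), the 283 genes lower by up to 4-fold (middle) and the 30 genes lower beyond 4-fold (right). Horizontal lines are means, vertical lines 1 SD (n = 5) and the triangle is 7-week replicate 3; the axes differ between panels, and in the right panel 7-week replicates 1 and 2 and 5-week replicate 4 lie apart from the other libraries of their ages.

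The 14- and 5-week values did not enter the contrast that chose these genes, although these libraries share the fit and its estimate of spread. Their reads also counted towards whether a gene could be tested. For genes with few reads at 10 and 7 weeks, this favours high values at 5 or 14 weeks. Among the 222 rising genes, 207 were also above 0 in the log2 fold change of 14 minus 5 weeks, whose median was 0.32. Over all tested genes 50.4% were above 0 and the median was 0.0031. Called between 14 and 5 weeks were 41 of the 222, all higher. Of all 19474 tested genes, 195 were called higher and 287 lower in that comparison, 2.48% together. Of the 283 genes lower by up to 4-fold, 273 were below 0 in that comparison, with a median of -0.34, and 58 were called, all lower. The 30 genes lower beyond 4-fold had other values. Their median from 14 minus 5 weeks was 0.17 (log2), 20 of them were above 0, and 2 were called lower. With the genes called without 7-week replicate 3 the medians between 14 and 5 weeks were 0.31 for 209 rising and -0.31 for 234 falling genes. Those 234 include falls beyond 4-fold, and over all 313 falling genes of the main list the median was -0.32.

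Set side by side, the comparisons that share libraries ran as follows. Between 7 and 5 weeks the median of log2 fold changes was -0.20 over the 222 rising genes, 2 of which were called lower, and 0.12 over the 283 falling genes, 1 of which was called higher. In that comparison 0.0154% of the tested genes were called in each direction. Between 14 and 7 weeks the medians were 0.51 for the rising and -0.47 for the falling genes, with 101 of 222 called higher (1.45% of all tested genes) and 119 of 283 called lower (1.04% of all tested genes). Between 14 and 10 weeks the medians were -0.11 and 0.09, with 0 rising genes and 1 falling gene called (edgeR). In that comparison few genes were called at all, 0.0976% of all tested genes higher and 0 lower. The 14-week mean of log2 CPM lay between the 10- and 7-week means and nearer to the 10-week mean in 135 of the 222 rising and 220 of the 283 falling genes, and beyond the 10-week mean in 61 and 43. The 5-week mean lay nearer to the 10-week mean in 58 rising and 35 falling genes, and beyond it in 5 and 6. The genes were chosen for their 10- and 7-week values, so both of these means are extreme by choice.

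Genes of middle level were called most often. Of the 9512 tested genes with a mean CPM of 10 to 100, 1.66% were called higher and 2.06% lower. Of the 5758 genes at 1 to 10 CPM these shares were 0.677% and 1.09%, of the 2442 genes at 100 CPM and above 0.901% and 1.39%, and of the 1762 genes below 1 CPM 0.17% and 1.14%.

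Rising genes were long. The median length was 4438.5 bases among the 222 rising genes and 2537 among the 313 falling genes, against 2670 over all tested genes. Of the 4869 genes with 4671 bases or more, 2.20% were called higher (exact 95% interval 1.804 to 2.65%) and 0.904% lower (0.657 to 1.21%). Of the 4867 genes shorter than 1328 bases, 0.39% were called higher (0.235 to 0.609%) and 1.73% lower (1.38 to 2.13%). These intervals cover counting error and take genes as independent, which they are not. Without 7-week replicate 3 the contrast between the classes was smaller. The longest class then had 1.64% called higher and 1.17% lower, and the shortest class 0.452% higher and 1.07% lower. Median lengths without it were 3737 bases for rising and 3023 bases for falling genes.

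The relation of length to the change over all genes moved with the same library. Across the 19474 tested genes, which are not independent, Spearman's rho between length and log2 fold change was 0.15, and without 7-week replicate 3 it was 0.06. In 7-week replicate 3, genes lay further below the mean of the other 7-week libraries the longer they were, with a rho of -0.21. For the other 7-week libraries the same rho ran from -0.05 to 0.22. The mean that each of them was set against included replicate 3, which moves their rho upward. Among 10-week libraries it ran from -0.18 in replicate 5 to 0.27 in replicate 3, so relations of this size also occurred within the 10-week group. The part of RNA quality or library preparation in the length relation was not tested.

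**Figure D5:**
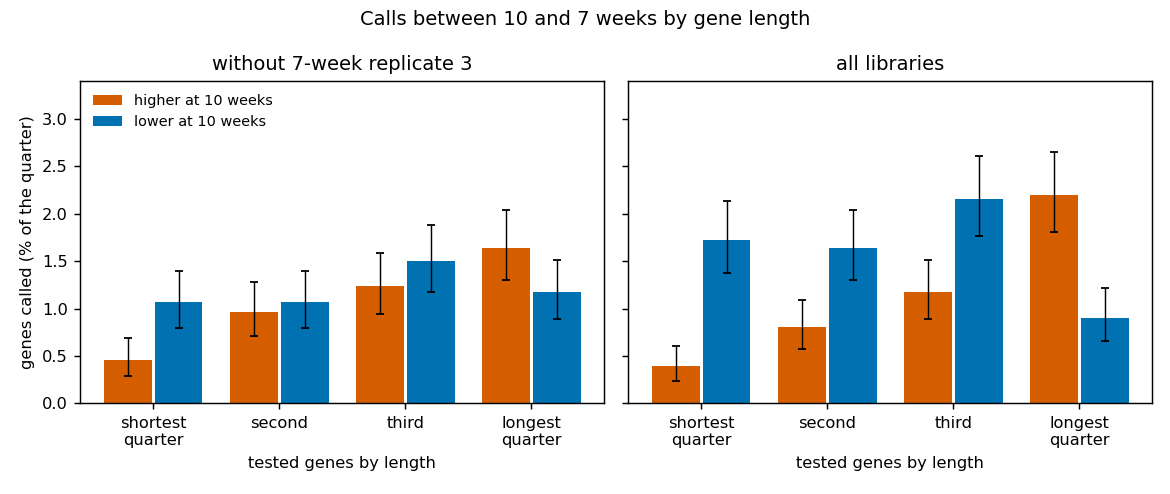
Share of genes called higher (orange) and lower (blue) at 10 than at 7 weeks in 4 equal classes of gene length (bounds at 1328, 2670 and 4671 bases), without 7-week replicate 3 (left) and with all libraries (right). Bars are percentages of the class and whiskers exact 95% intervals; in the longest class 2.20% were called higher with all libraries and 1.64% without replicate 3.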

How the data were processed

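Libraries were made from total RNA with a TruSeq RNA v2 kit, per the labels' protocols. The submitters' processing notes list featureCounts 1.4.6-p4, STAR 2.4.1d and CASAVA 1.8.2. Build, annotation and strand setting: not given in the sources used here. The authors deposited raw read counts per gene identifier, which all tests used. The authors also deposited an RPKM table; the library total in its values rotates down the rows over 25 totals, 5 of which match no library. Lengths were solved from 1 value per gene under this rotation; among nonzero values with a known total, in genes whose RPKM summed to more than 1, recomputed and deposited RPKM then differed by at most 0.0011 in 99.99%. RPKM served only for lengths. The RefSeq table at hand (NfurGRZ-RIMD1) holds 0 of the 26739 identifiers, so gene lists and marker lists were not tested and no sequence is shown.

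The tests on counts ran under R 4.3.3 in edgeR 4.0.16 (TMM, filterByExpr by age, robust quasi-likelihood fit of all 20 libraries with 1 mean per age, contrast 10 minus 7 weeks, Benjamini-Hochberg over all tested genes, threshold 0.05). The standard error is the log2 fold change over the square root of F. Mean and library log2 CPM used a prior count of 2. CPM values are TMM-scaled. Exact permutation tests used scipy 1.17.1. The smallest chi-square per degree of freedom between libraries of 1 age was 10.02, so none were merged. Alternatives were DESeq2 size factors, 2 other filters, DESeq2 1.42.0, limma-voom (limma 3.58.1), a surrogate variable (sva 3.50.0), no robust step, the 2 ages fitted alone and leaving out each library. The code was tested on simulated data. The genes, lists and settings were chosen with earlier results of these data known; the rule for named genes took the 2 largest changes in each direction under the conditions given with them.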

Additional observations from a re-analysis of the deposited data

Results flagged for a closer look

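Among the values checked, 4 lay farther from the other libraries of their age than Dixon's 95% limit for 5 values allows. The check did not take in every value given above. Chance flags about 1 in 20 groups, but the number of groups checked is not given here. The 4 flags can thus not be set against that rate, and those of 7-week replicate 3 come from the same library. In 7-week replicate 3, the distance to the centroid of its age was 113.9, against 42.5 to 61.9 in the other 7-week libraries, and Spearman's rho to the other libraries had a median of 0.925, against 0.975 to 0.986. In 7-week replicate 5, Nfu_g_1_010812 was at 21.2 CPM, against 3.82 to 8.57 CPM in the other 7-week libraries; without that library the gene's change (10 minus 7 weeks, log2) was 2.32. In 5-week replicate 4, which enters the 5-week values and comparisons and the shared estimate of spread, the 10 most abundant genes took 5.01% of the counts, against 3.63 to 3.98% in the other 5-week libraries.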

How the results depend on the processing

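The count of 535 genes was within 1.5 times under DESeq2 size factors, both other filters, limma-voom and no robust step (397 to 541). It was 1220 by DESeq2 (453 higher, 767 lower), 873 with 1 surrogate variable (468 higher, 405 lower), 60 in the fit of only 7 and 10 weeks (23 higher, 37 lower) and 1142 in that fit without 7-week replicate 3 (583 higher, 559 lower). Without a filter 140 genes were higher and 257 lower. Leaving out 1 library gave 91 to 712 genes (30 to 303 higher, 61 to 434 lower). Falling genes were not in excess by limma-voom (230 higher, 228 lower), with 1 surrogate variable or in the 2-age fit without replicate 3; with DESeq2 size factors it was 186 higher and 348 lower. The cause was not tested. The difference in spread (10 minus 7 weeks) was -30.8 to -3.72 without single libraries, and -3.72 without 7-week replicate 3 (exact permutation p = 0.46). The difference in detected genes, not past the test with all libraries, was -30.5 to 61.75. Without 7-week replicate 3 the shares called lower were 0.568%, 0.677% and 1.59% below 1, at 1 to 10 and at 10 to 100 CPM, 1.07% in both classes below 2670 bases and 1.499% at 2670 to 4671 bases, and 1.64% of the longest genes were called higher. No paired analysis was made. A brain is taken at a single age, so the ages are not paired by animal. The labels give no replicate numbers and link no libraries across ages. Counts of 0 to 3 reads limit the folds of the genes lowest at 10 weeks.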

Other observations

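A fitted fall beyond 4-fold at 10 weeks without a call was seen in 79 genes, and in 50 of them 7-week replicate 2 was the highest 7-week library, and in 15 replicate 3. These genes were chosen after their values were seen. The 29 with a mean CPM of at least 10 had a geometric mean of 8.63 to 12.3 CPM in the 10-week libraries. The 7-week libraries, replicates 1 to 5, had 15.9, 194.8, 8.06, 11.9 and 6.33 CPM, and the highest value of the series was 369.3 CPM in 5-week replicate 4. The 29 genes took 1.55% of the counts of 7-week replicate 2, and 0.0473 to 0.0694% in the 10-week libraries. Among these 29, the highest 7-week library was replicate 2 in 26 and replicate 1 in 3. The largest fitted rises without a call, 12 genes beyond 4-fold, had replicate 3 as the highest 10-week library in 5 cases.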
